A study of Homo sapiens with 2 samples.

Results

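The cytokines of the interleukin-1 (IL-1) and interleukin-18 (IL-18) family and their receptors were described in RNA-seq libraries of 2 human lung cancer cell lines. The 10 genes were chosen by symbol, as IL1A, IL1B, IL1RN, IL1R1, IL1R2, IL1RAP, IL1RL1, IL18, IL18R1 and IL33, out of 30843 symbols in the tables, and they covered 46 of 65535 listed transcripts. They were picked with earlier results of the same libraries known, so their levels and ratios are a description and no test was made of them. PC9 is a lung adenocarcinoma line with an activating deletion in EGFR, and MTAC-P was made from PC9 and is resistant to EGFR tyrosine kinase inhibitors, per the labels. Both were grown in DMEM with serum, with no inhibitor named at harvest, and the sources used here do not say whether MTAC-P is a single clone. Each line had 1 library, although the series text speaks of triplicates, so no difference has a replicate check, no p-value is given, and resistance and any other difference between the cultures cannot be told apart.

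IL-1 alpha and IL-1 beta bind IL1R1, which pairs with the shared co-receptor IL1RAP to signal through MYD88 and IRAK kinases to NF-kB. IL1R2 is a decoy that binds IL-1 without signalling, and IL1RN encodes an antagonist that occupies IL1R1. IL-33 uses IL1RL1 (also called ST2) with IL1RAP, and IL-18 uses IL18R1 with a partner encoded by IL18RAP. Epithelial cells can store IL-1 alpha, IL-18 and IL-33 as precursors, and IL-1 beta and IL-18 are cut to their active forms by caspase-1 in inflammasomes.

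The values are FPKM (fragments per kilobase of transcript, scaled by the mapped fragments of the library), summed over the listed transcripts of a gene. The log2 ratio is log2((MTAC-P + 1)/(PC9 + 1)), so the pseudocount of 1 understates the ratio of low genes. The comparison took the 11435 genes whose mean level reached 1 FPKM, with a median log2 ratio of -0.02 and 95% of them between -1.27 and 1.17. The depth is not recorded in the tables. Among genes with a single listed transcript, FPKM times length in kilobases piled up at a lowest value of 0.0424 in PC9 against 0.0453 in MTAC-P, with a next peak at 2.02 and 2.0 times that value. Taken as the worth of 1 fragment, these values were used to give the approximate number of fragments behind a value. All 10 epithelial markers were compared and none was at 2-fold. Of the 10, 8 lay below 0 and 2 above, with a median log2 ratio of -0.21. The most abundant were the keratins KRT18 at 2329 and 2720 FPKM and KRT19 at 549 and 430 in PC9 and MTAC-P. Of 16 leukocyte markers, which sum to 25.1 and 30.7 FPKM, only CD68 was compared (22.2 and 28.8), and PTPRC, which encodes CD45, stood at 0.0910 and 0.0460. Of 11 fibroblast and endothelial markers 3 were compared and none was at 2-fold, the most abundant being CDH5 (3.34 and 4.13) and ESAM (2.41 and 2.26).

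Of the 10 genes, 9 were compared and IL33 was not. In MTAC-P 4 of the 9 were at least 2-fold higher, IL1RL1, IL18R1, IL18 and IL1B, against a background of 3.48% of all compared genes. None of the 9 was at least 2-fold lower, where 4.29% of compared genes were; together 7.77% of compared genes were 2-fold apart. IL1A and IL18R1 were under 1 FPKM in PC9 and were compared only through their MTAC-P level. The median log2 ratio of the 9 was 0.93, but 0.42 with a pseudocount of 5 and 1.47 when a mean of at least 5 FPKM was asked for. Among all genes with a mean from 1 to under 5 FPKM, where 6 of the 9 lie, 5.39% were at least 2-fold higher, and from 5 to under 30 FPKM 3% were. In bulk RNA, more cells with a transcript and more RNA per cell cannot be told apart.

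**Figure D1:**
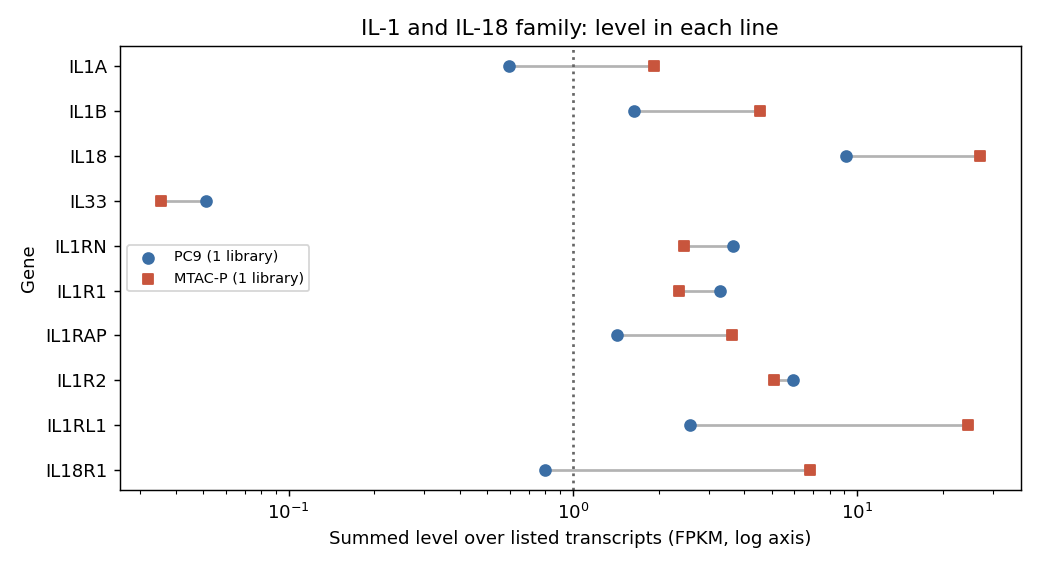
Summed level of each gene in FPKM on a log axis, with 1 point per library (circle, PC9; square, MTAC-P) joined by a line; the dotted line marks 1 FPKM. IL1RL1 and IL18R1 have the longest lines, 2.59 to 24.5 and 0.799 to 6.83 FPKM, and IL33 lies far under 1 in both lines.

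Among the agonist cytokines, IL18 was the most abundant member in both lines. It stood at 9.09 FPKM in PC9 against 26.9 in MTAC-P, a log2 ratio of 1.47, from about 246 and 681 fragments. The whole value came from 1 listed transcript of 193 codons, and that is 1 of the 3 coding transcripts GENCODE release 29 gives for the gene (chromosome 11, 112143251 to 112164117, minus strand). IL1B (chromosome 2, 112829751 to 112836903, minus strand) stood at 1.64 in PC9 against 4.56 in MTAC-P, a log2 ratio of 1.07 from about 63.0 and 164 fragments. All 4 coding transcripts of IL1B were listed, and only the full-length one of 269 codons was above 0 in either library. With a pseudocount of 5, IL1B had a log2 ratio of 0.53 and was no longer at 2-fold.

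IL1A, the neighbour of IL1B (chromosome 2, 112773915 to 112784590, minus strand), stood at 0.594 FPKM in PC9 against 1.92 in MTAC-P. The plain fold was 3.24, close to that of IL18 (2.96) and IL1B (2.78), and the log2 ratio was 0.88 because of the pseudocount. About 29.7 and 90.1 fragments lay behind it, the fewest of the compared cytokine genes. With a pseudocount of 0.1 its log2 ratio was 1.55. IL33 (chromosome 9, 6215786 to 6257983, plus strand) stood at 0.0513 and 0.0356 FPKM, or about 3.19 and 2.07 fragments, and no difference was detectable at this depth. Of the 4 coding transcripts of IL33, which encodes the ligand of IL1RL1, 2 were listed.

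The RefSeq promoter windows of IL1A and IL1B (GRCh38.p14) are shown because these adjacent genes had like ratios. The 250 bases before the start are printed 5′ to 3′ on the minus strand, chr2:112784494-112784743 for IL1A and chr2:112836780-112837029 for IL1B. Capitals mark matches, on either strand, to TGANTCA (the AP-1 element) and TATAAA (the TATA box).
IL1A: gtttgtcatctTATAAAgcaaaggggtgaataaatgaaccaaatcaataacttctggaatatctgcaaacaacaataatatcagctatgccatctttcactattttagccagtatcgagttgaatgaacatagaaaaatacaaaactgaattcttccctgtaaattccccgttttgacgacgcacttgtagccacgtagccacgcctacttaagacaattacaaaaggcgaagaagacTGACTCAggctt
IL1B: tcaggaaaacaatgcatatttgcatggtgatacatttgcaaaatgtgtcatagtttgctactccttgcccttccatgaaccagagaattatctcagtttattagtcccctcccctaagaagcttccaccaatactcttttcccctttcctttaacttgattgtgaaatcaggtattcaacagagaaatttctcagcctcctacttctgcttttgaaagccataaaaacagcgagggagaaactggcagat
Each start is 1 RefSeq start, and the GENCODE 5′ end of the gene lies 97 bases upstream of it for IL1A and 124 for IL1B, so the printed bases run into those gene models. IL1A held an AP-1 match at position -12, counted from the start at 0. From the gene's other RefSeq start, whose window is not shown, the same match lay at -105. A further AP-1 match lay at -55 from that start, which is position 38 from the start used here and so is not printed. Of the 35116 RefSeq promoter windows of 300 bases, 7.71% hold TGANTCA. IL1B held no AP-1 or TATAAA match in its window, and TATAAA was found in 11.5% of all windows. A kappa B form, searched on both strands as GGGA, any 2 bases and TTCC, was in none of 19 windows of 9 members, against 1.61% of all windows. TTNCNNAA, a loose form of the C/EBP element, was in 11 of the 19 member windows, some of which overlap, and in 36.8% of all windows, and it is not marked in the letters. The RefSeq table used here gave no window for IL18.

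The antagonist and the decoy were not higher in MTAC-P. IL1RN (chromosome 2, 113107214 to 113134016, plus strand) stood at 3.64 FPKM in PC9 against 2.47 in MTAC-P, a log2 ratio of -0.42 from about 151 and 96.4 fragments. Its 5 coding transcripts were all listed. The form of 159 codons, an intracellular antagonist that starts at an upstream exon, gave 75% of the value in PC9 against 74.6% in MTAC-P. The form of 177 codons, which carries the signal peptide and is secreted, stood at 0.0686 in PC9, about 1.37 fragments, and at 0 in MTAC-P. The forms of 143 codons, also intracellular, summed to 0.472 and 0.273, and that of 180 codons stood at 0.369 and 0.354. IL1RN was higher than IL1B in PC9 and lower than IL1B in MTAC-P on the FPKM scale.

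IL1R2, the decoy receptor (chromosome 2, 101991844 to 102028544, plus strand), stood at 5.92 FPKM in PC9 against 5.09 in MTAC-P. The log2 ratio of -0.18 was the smallest in size of the 9 compared members. Of the 4 coding transcripts of IL1R2 in GENCODE, 2 were listed. Both listed transcripts encode 398 codons, but their 5′ ends lie 7151 bases apart. The transcript from the downstream start held 99.99% of the listed value in each library, and how the fragments were divided between the models is not recorded. The upstream one stood at 0.000367 and 0.000629 FPKM, less than 1 fragment.
The 250 bases before each RefSeq start are shown because 1 start carried nearly the whole listed signal, chr2:101991710-101991959 (upstream) and chr2:101998711-101998960 (downstream), plus strand, with TATAAA in capitals.
IL1R2 upstream: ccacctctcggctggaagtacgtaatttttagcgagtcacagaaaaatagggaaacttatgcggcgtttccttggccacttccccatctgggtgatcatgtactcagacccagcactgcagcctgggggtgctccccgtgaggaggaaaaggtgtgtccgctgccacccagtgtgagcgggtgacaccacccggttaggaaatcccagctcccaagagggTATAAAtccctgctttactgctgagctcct
IL1R2 downstream: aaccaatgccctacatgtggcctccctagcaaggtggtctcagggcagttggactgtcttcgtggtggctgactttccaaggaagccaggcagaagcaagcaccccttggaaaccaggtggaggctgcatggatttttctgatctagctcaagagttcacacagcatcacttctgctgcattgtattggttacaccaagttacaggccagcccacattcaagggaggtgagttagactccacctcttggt
The upstream window held TATAAA at position -30 and the downstream window held no match to TATAAA or TGANTCA. The GENCODE 5′ end lies 116 bases before the upstream RefSeq start, so this TATAAA lies inside the gene model.

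Of the signalling receptors of IL-1, the co-receptor gene had a higher summed level in MTAC-P and IL1R1 depended on the transcript. IL1RAP (chromosome 3, 190514051 to 190659750, plus strand) stood at 1.43 FPKM in PC9 against 3.63 in MTAC-P, a plain fold of 2.53 and a log2 ratio of 0.93. Of its 12 coding transcripts in GENCODE, 8 were listed. All 7 of its transcripts that were above 0 in PC9 were higher in MTAC-P. Weighted by transcript length, the log2 ratio was 0.69 with the pseudocount of 1, and the plain fold of the length-weighted values was 2.23. The membrane form of 570 codons stood at 0.402 and 0.672 FPKM, or about 45 and 70.2 fragments. Its log2 ratio was 0.25, and its share of the sum was 28.1% in PC9 against 18.5% in MTAC-P. The forms of 346 codons, annotated as targets of nonsense-mediated decay, stood at 0.354 and 0.961, 26.5% of the MTAC-P sum. An incomplete model of 192 codons was listed at 0 in PC9 and stood at 0.396 in MTAC-P. The forms of 356 codons, which end before the membrane segment and give a soluble co-receptor, stood at 0.588 and 0.899. A form of 215 codons stood at 0.0872 and 0.698, from about 3.21 and 24.1 fragments. The form of 687 codons, which carries the alternative C-terminal part seen in neurons, was listed at 0 in both libraries.

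IL1R1 (chromosome 2, 102064544 to 102179874, plus strand) summed to 3.29 FPKM in PC9 against 2.36 in MTAC-P, a log2 ratio of -0.35. The transcript of the full receptor of 569 codons went the other way, at 0.814 in PC9 against 1.90 in MTAC-P (log2 ratio 0.68), from about 98.6 and 216 fragments. In PC9 8 of its 11 listed transcripts were above 0, and in MTAC-P 2 were. Of the 11 coding transcripts of IL1R1 in GENCODE, 8 were listed. The forms of 447 codons summed to 0.551 in PC9 and to a listed 0 in MTAC-P, as was an incomplete model of 182 codons that stood at 0.577 in PC9. A further transcript that is not in GENCODE release 29 stood at 1.14 and 0.462. When each transcript was weighted by its length, leaving out that one, IL1R1 had a log2 ratio of 0.41, and without its leading transcript -1.25. The direction of the difference in IL1R1 depended on how its transcripts were combined.

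IL1RL1 had the largest log2 ratio of the members and ranked 29 from the top among all compared genes. It lies on chromosome 2 from 102311502 to 102352037 on the plus strand, and stood at 2.59 FPKM in PC9 against 24.5 in MTAC-P, a log2 ratio of 2.83 and a plain fold of 9.47. About 169 and 1566 fragments lay behind these values, and weighting by transcript length left the log2 ratio at 2.75. The 5 transcripts matched to GENCODE were all higher in MTAC-P. These include 4 of the 5 coding transcripts that GENCODE gives for the gene.

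Nearly all of the IL1RL1 signal lay in transcripts that end before the last coding exon. The form of 556 codons, the membrane receptor, stood at 0.0534 FPKM in PC9 against 0.379 in MTAC-P, or about 2.59 and 17.2 fragments. Its share of the IL1RL1 sum was 2.06% in PC9 against 1.55% in MTAC-P. The form of 328 codons, known as soluble ST2, a secreted decoy for IL-33, stood at 0.556 and 4.32, from about 52.3 and 381 fragments, and its coding sequence ends 8489 bases before that of the membrane form. Forms of 314 codons (1.48 and 5.83) and 259 codons (0.504 and 6.71), the last one annotated as a target of nonsense-mediated decay, were also higher in MTAC-P. A form of 211 codons was listed at 0 in PC9 and stood at 7.28 in MTAC-P, about 573 fragments. The 4 shorter forms together held 97.9% of the PC9 sum and 98.5% of the MTAC-P sum.

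The IL1RL1 transcripts begin at 2 groups of starts, 25646 bases apart. Transcripts from the proximal group stood at 2.54 FPKM in PC9 against 16.9 in MTAC-P, a plain fold of 6.65. Those from the distal group, the membrane form and the form of 211 codons, stood at 0.0534 and 7.66, and made up 2.06% and 31.2% of the sum. The distal share in MTAC-P rests almost wholly on the form of 211 codons, whose 7 exons include 6 that overlap exons of the proximal transcripts, and how the fragments were divided between such overlapping models is not recorded in the tables.
The 250 bases before each RefSeq start are shown because the start groups differ in their ratios, chr2:102311313-102311562 (distal) and chr2:102337007-102337256 (proximal), plus strand, with matches to TATAAA or TGANTCA in capitals.
IL1RL1 distal: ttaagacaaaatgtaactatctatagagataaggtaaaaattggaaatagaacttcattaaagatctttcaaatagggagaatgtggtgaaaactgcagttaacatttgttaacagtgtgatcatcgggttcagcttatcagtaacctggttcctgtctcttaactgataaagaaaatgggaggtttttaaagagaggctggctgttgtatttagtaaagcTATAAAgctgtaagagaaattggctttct
IL1RL1 proximal: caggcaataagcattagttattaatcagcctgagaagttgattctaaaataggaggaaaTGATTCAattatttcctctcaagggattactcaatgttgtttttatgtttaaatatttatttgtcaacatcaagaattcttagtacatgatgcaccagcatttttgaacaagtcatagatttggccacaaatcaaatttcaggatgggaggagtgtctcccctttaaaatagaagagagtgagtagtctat
The distal window held TATAAA at position -29, and the proximal window held an AP-1 match at position -191. These are matches of letters only. The GENCODE 5′ ends lie 61 bases before the distal and 109 before the proximal RefSeq start, so the distal TATAAA lies inside the gene model.

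**Figure D2:**
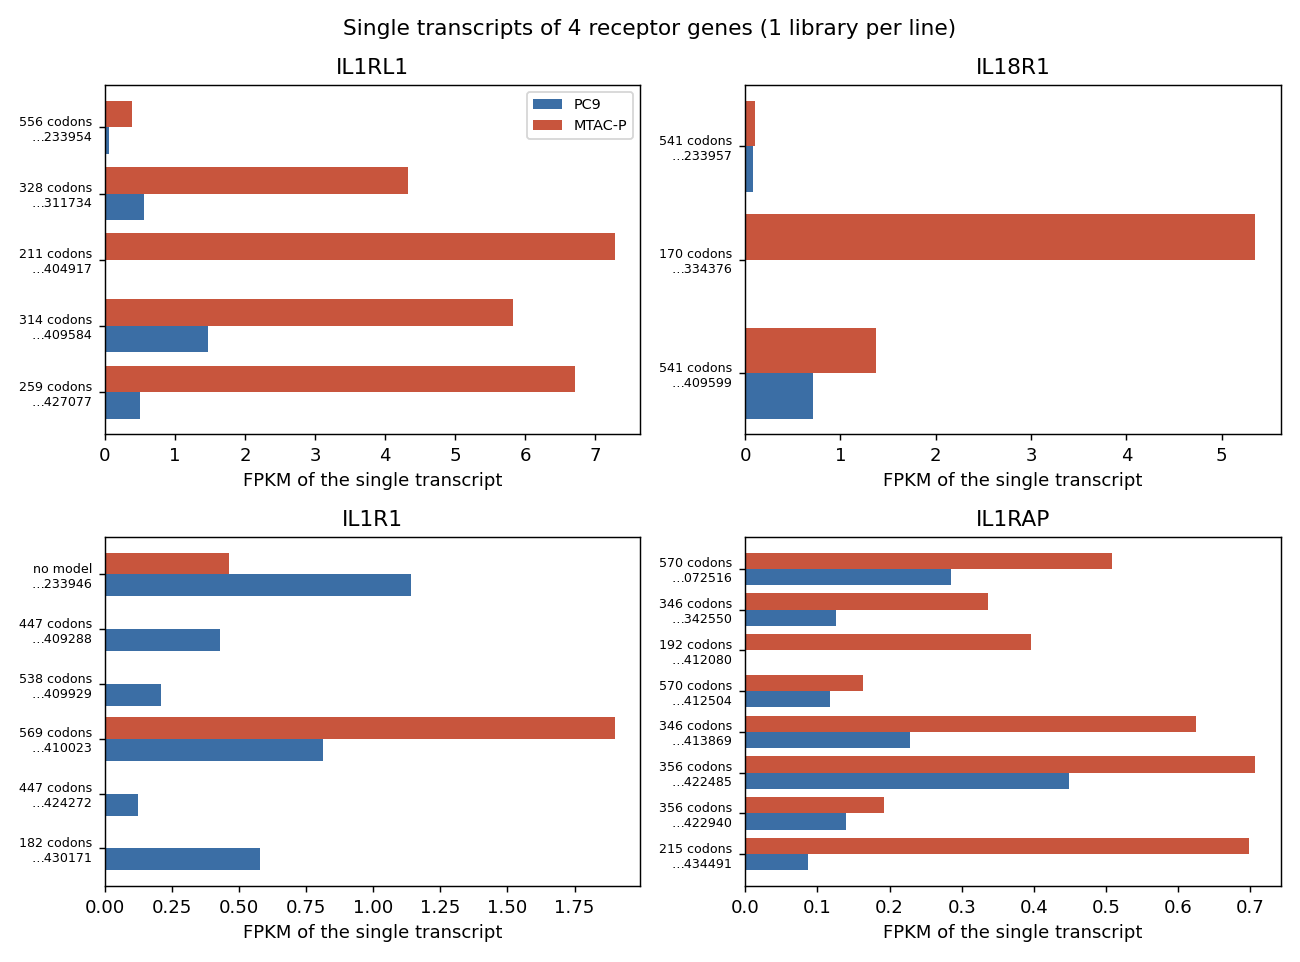
FPKM of each listed transcript of at least 0.01 FPKM in either library, for 4 receptor genes, with PC9 in blue and MTAC-P in red; labels give the coding length in GENCODE and the last digits of the transcript ID. In IL1RL1 the form of 556 codons is the shortest pair of bars; in IL18R1 a form of 170 codons has a value of 5.35 in MTAC-P and 0 in PC9; in IL1R1 the form of 569 codons is the only matched one with a value in MTAC-P.

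IL18R1, which binds IL-18, lies next to IL1RL1 (chromosome 2, 102311529 to 102398775, plus strand) and stood at 0.799 FPKM in PC9 against 6.83 in MTAC-P. The log2 ratio was 2.12 and the gene ranked 74 from the top among compared genes. Most of the difference came from a short transcript of 537 bases and 170 codons, which was listed at 0 in PC9 and stood at 5.35 in MTAC-P, 78.3% of the MTAC-P sum but only about 63.4 fragments. The receptor forms of 541 codons stood at 0.799 in PC9 against 1.48 in MTAC-P, a log2 ratio of 0.46 and a plain fold of 1.85, from about 72.2 and 125 fragments. FPKM divides by length, so a short transcript weighs more in a sum than its fragments do. Weighted by transcript length and with the pseudocount of 1, IL18R1 had a log2 ratio of 0.84, under 2-fold. The plain fold of its length-weighted values was 2.79, past 2-fold. Without the short transcript the log2 ratio of IL18R1 was 0.46. One listed IL18R1 model begins inside IL1RL1, at 102311529, and was listed at 0 in both libraries.

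Of the 46 transcripts of the 10 genes, 12 had a mean of at least 1 FPKM. Of these, 7 reached 2-fold higher in MTAC-P and none 2-fold lower, against 7.76% and 8.88% of the 19406 transcripts compared over the whole tables. At 0 in both libraries were 11, while 7 were above 0 in PC9 and listed at 0 in MTAC-P, and 3 the reverse. The 7 higher ones were those of IL1B and IL18, 4 of IL1RL1 and 1 of IL18R1. The 4 of IL1RL1 are models of 1 gene and are not independent of each other. The IL1RL1 forms of 211, 259 and 328 codons and the IL18R1 form of 170 codons were under 1 FPKM in PC9. They reached the mean of 1 FPKM only through their MTAC-P level.

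The members on chromosome 2 lie in 2 clusters, each with both positive and negative ratios among its compared genes. In the receptor cluster of 6 coding genes over 461 kb, from IL1R2 to IL18RAP, the order was IL1R2 (-0.18), IL1R1 (-0.35), IL1RL2, IL1RL1 (2.83), IL18R1 (2.12) and IL18RAP. IL1RL2, the IL-36 receptor, stood at 0.172 and 0.604 FPKM. IL18RAP, the partner chain that IL18R1 needs to signal, stood at 0.0367 FPKM in PC9 against 0.0440 in MTAC-P. The genes that flank the cluster were MAP4K4, a kinase, with a log2 ratio of 0.62, and on the other side the sodium-proton exchangers SLC9A4 (0.577 and 0.165 FPKM) and SLC9A2 (2.91 and 0.963, log2 ratio -0.99). The high ratios were those of the adjacent genes IL1RL1 and IL18R1, with lower ratios on either side. That of IL18R1 rests mostly on its short transcript. Its receptor forms of 541 codons had 0.46, under the 0.62 of MAP4K4. Length weighting gave IL18R1 0.84 with the pseudocount of 1, and a plain fold of 2.79.

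In the ligand cluster of 9 coding genes over 360 kb, IL1A and IL1B lie at one end and IL1RN at the other. The genes between them encode IL-37, the IL-36 cytokines and their antagonist, and the product of IL1F10, also known as IL-38. IL37, IL36G, IL36A, IL36B and IL1F10 were all under 1 FPKM in both libraries, with IL36A and IL1F10 listed at 0. IL36RN, the antagonist of the IL-36 receptor, was the only one of these 6 genes compared, at 1.91 and 1.27 FPKM (log2 ratio -0.36). The flanking genes CKAP2L, a mitotic spindle gene, and PSD4 had ratios of -0.37 and 0.57.

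**Figure D3:**
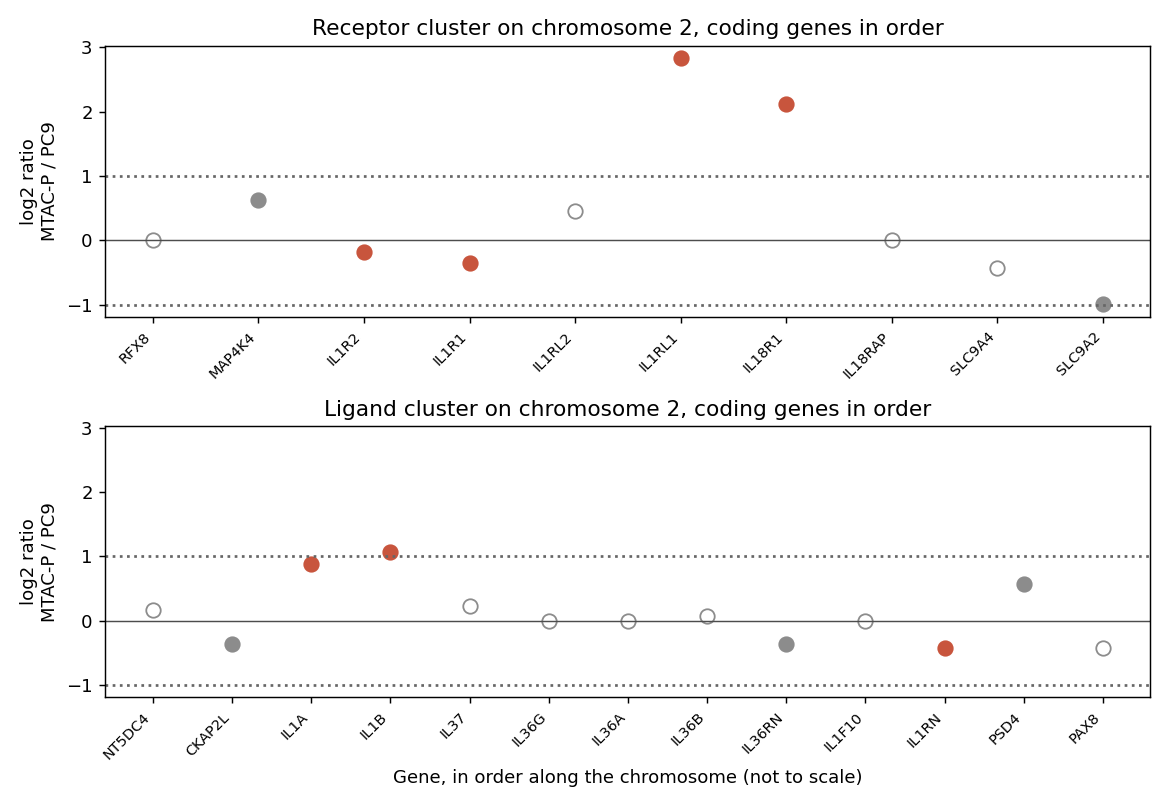
Log2 ratio of each coding gene in the 2 chromosome 2 clusters and of the 2 genes on each side, in chromosomal order; red points are members of the family list, open points have a mean under 1 FPKM, and dotted lines mark 2-fold. IL1RL1 (2.83) and IL18R1 (2.12) stand above their neighbours, and IL1B (1.07) is the only gene of the ligand cluster past 2-fold. Without its short transcript IL18R1 had 0.46.

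Other family receptors and binding proteins did not reach 2-fold. SIGIRR, an inhibitory member of the receptor family, stood at 8.66 FPKM in PC9 against 4.78 in MTAC-P (log2 ratio -0.74). IL18BP, a secreted protein that neutralises IL-18, stood at 2.11 and 1.95 (-0.08). The other 4 genes of that list of 6 were under 1 FPKM in both lines.

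Genes that carry the signal from the receptors showed no common direction. Of 20 genes, 18 were compared, with 10 above 0 and 8 below, none 2-fold higher, 1 at least 2-fold lower and a median log2 ratio of 0.04. The 1 lower gene was PELI2, an E3 ubiquitin ligase of the Pellino family that acts on IRAK proteins, at 8.18 and 2.61 FPKM (-1.35). Over all compared genes 3.48% were at least 2-fold higher and 4.29% lower, and 1 of 18 lies near the latter share.

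Of 21 genes for processing and release of the cytokines, 8 were compared, with no gene 2-fold higher and 2 at least 2-fold lower. Over all compared genes these shares were 3.48% and 4.29%. Of the 8, 5 lay above 0 and 3 below. The median of the 8 on the log2 scale was 0.30, but the list had a median of 0.0031 with no filter on level and of -0.93 without leading transcripts. PYCARD, which encodes the inflammasome adaptor ASC, stood at 14.2 FPKM in PC9 against 5.19 in MTAC-P (-1.30). GSDMD, whose product gasdermin D forms the pore through which IL-1 beta leaves cells, stood at 16.5 and 7.04 (-1.12). CASP1, the enzyme that cuts pro-IL-1 beta and pro-IL-18, was named after its values were seen and stood at 0.00783 and 0.164 FPKM. The precursor genes IL1B and IL18 were higher in MTAC-P while PYCARD and GSDMD were lower and CASP1 was under 1 FPKM in both lines. PYCARD and GSDMD were named for reaching 2-fold, and 5 of the 8 compared genes of the list lay above 0.

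Most genes known to respond to IL-1 in epithelial cells had a higher level in MTAC-P. After leaving out IL1A and IL1B, 20 of 29 were compared. The 20 lay above 0, where 47.6% of all compared genes did, with a median log2 ratio of 0.86. Of the 20, 8 were at least 2-fold higher and none lower, against 3.48% and 4.29% of all compared genes. With no filter on level, 26 of the 29 lay above 0 and 3 below, and the median was 0.56. The 3 below were the chemokine genes CXCL3 (1.07 and 0.708 FPKM, -0.28) and CXCL6 (-0.05) and the protease gene MMP9 (-0.31), none of which reached a mean of 1 FPKM. The genes added above 0 did not reach that mean either, and the chemokine gene CXCL2 counts there at 0 and 6e-06 FPKM. CSF2 and PTGS2 were under 1 FPKM in PC9 and were compared only through their MTAC-P level. LCN2, an iron-carrier protein of epithelial defence, stood at 337 and 1449 FPKM (2.10), and C3, a complement component, at 18.8 and 62.1 (1.68). TNFAIP3, an NF-kB target that restrains the pathway, had a ratio of 1.61, and PTGS2, the inducible cyclooxygenase gene, stood at 0.587 and 3.26 (1.43). These genes respond to other signals too, and the list was drawn up with earlier results of these libraries known, so its direction is not independent evidence. Whether IL-1 had a part in these levels was not tested.

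**Figure D4:**
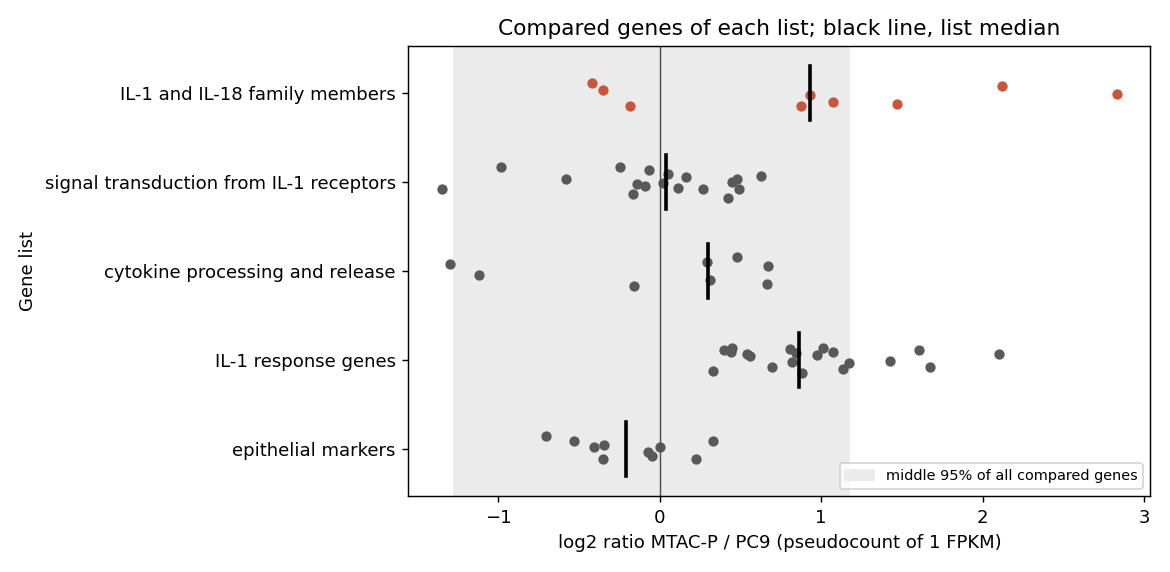
Log2 ratio of each compared gene in 5 lists, with the list median as a black line and the middle 95% of all compared genes shaded. The 20 compared IL-1 response genes lie above 0 (median 0.86), while the signal transduction genes lie on both sides (median 0.04) and the epithelial markers have a median of -0.21.

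**Figure D5:**
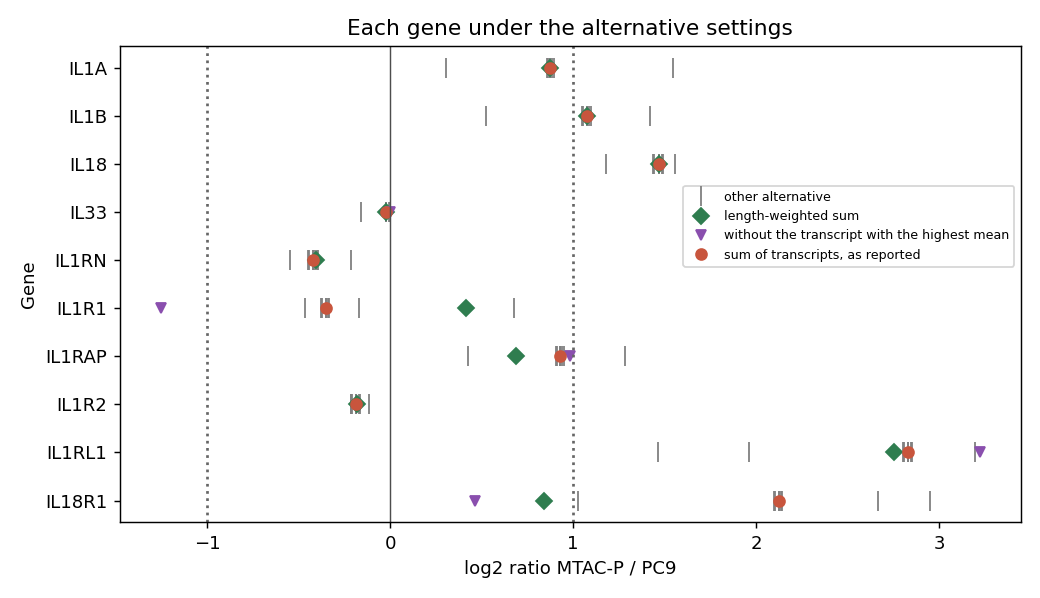
Log2 ratio of each member as reported (red circle), weighted by transcript length (green diamond), without its leading transcript (purple triangle) and under the other alternatives (grey ticks); dotted lines mark 2-fold. IL1RL1 and IL18 stay past 2-fold under each setting that gave a value, IL18R1 ranges from 0.46 to 2.95, and IL1R1 lies on both sides of 0.

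By level, the order in PC9 was IL18, IL1R2, IL1RN, IL1R1, IL1RL1, IL1B, IL1RAP, IL18R1, IL1A and IL33. In MTAC-P it was IL18, IL1RL1, IL18R1, IL1R2, IL1B, IL1RAP, IL1RN, IL1R1, IL1A and IL33. IL18 was at the top and IL33 at the bottom in both. IL1RL1 moved from rank 5 to rank 2 and IL1RN from rank 3 to rank 7, and with 1 library a line the spread behind neighbouring ranks is unknown.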

How the data were processed

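RNA-seq libraries of PC9 and MTAC-P, 1 each, were used. The authors deposited 1 value per transcript, taken as FPKM because the submitters' processing notes name Cufflinks, with Trim Galore, TopHat and hg38, without versions here; the tables do not name the unit. The sources used here do not give the annotation release. Each table lists 65535 transcripts in order of ID, ending at number 437205, and later IDs are not listed and were not analysed here. Gene sums, shares of a sum and the background of all genes therefore leave out any transcript with a later ID. GENCODE release 29 (GRCh38) matched 84.5% of the IDs and supplied coordinates, lengths and coding lengths. Promoter windows came from RefSeq (GRCh38.p14).

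Values were summed per symbol and compared as log2 ratios with a pseudocount of 1 for genes with a mean of at least 1, and counted at 2-fold. No test was made, with 1 library per line. The fragment worth was read from 3913 (PC9) and 3849 (MTAC-P) genes with a single listed transcript of 1500 to 6000 nt, as the mode of FPKM times length; it is an estimate, it ignores fragment size, and it covers counting error only. The members, the lists and the motifs were chosen with earlier results of these data known. Besides the members, up to 4 genes per list at 2-fold were named, or the 2 most abundant, plus chromosome 2 neighbours. CASP1, PTPRC, CSF2, CXCL2, CXCL3, CXCL6 and MMP9 were named after their values were seen. The comparison of summed values was tested on simulated libraries with known folds, and the motif search on a planted sequence. The division of fragments between transcripts, the length weighting and the fragment estimate were not simulated. Python 3.11.15, pandas 2.3.3, numpy 2.4.6, scipy 1.17.1 and matplotlib 3.10.9 were used. Alternatives were other pseudocounts, scalings, filters, folds and ways of combining transcripts; length weighting was added after seeing the data.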

Additional observations from a re-analysis of the deposited data

How the results depend on the processing

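Of 107 values of single members under the alternatives, 98 kept their sign and their side of 2-fold, 3 dropped below 2-fold and 3 passed it. Part of the 98 could not change, so the count is no measure of robustness. A filter on level does not alter the ratio of a gene, and keeping protein-coding transcripts alone left each member as it was. The values of IL1A, IL1B and IL18 came from 1 transcript each, so ways of combining transcripts could not move them. Below 2-fold, IL1R1 changed sign with the leading transcript alone (0.68) and with length weighting (0.41), and IL33 was 0 without its leading transcript. Those that dropped were IL1B with a pseudocount of 5 (0.53) and IL18R1 without its leading transcript (0.46) or with length weighting (0.84, though a plain fold of 2.79). Those that passed were IL1A (1.55) and IL1RAP (1.28) with a pseudocount of 0.1 and IL1R1 without its leading transcript (-1.25). The 4 members at least 2-fold higher became 2 at a mean of at least 5, 2 at 4-fold and, without leading transcripts, 1 higher and 1 lower; these settings compare fewer genes or transcripts or use a higher fold. The 398 higher and 490 lower genes overall became 140 and 144 with a pseudocount of 5, 206 and 225 at a mean of at least 5, 1025 and 1282 at 1.5-fold and 89 and 85 at 4-fold. The lower genes were 775 with a pseudocount of 0.1 and 298 with length weighting, a setting that compared 9023 genes. The median over members was 1.42 and 0.42 with pseudocounts of 0.1 and 5 and 1.47 at a mean of at least 5. With no filter the medians of processing and release genes and IL-1 response genes were 0.0031 and 0.56. Without leading transcripts these were -0.93 and 0.54, that of signal transduction genes -0.17 and that of epithelial markers -0.36, or -0.34 with length weighting. The median of signal transduction genes, 0.04 as reported, was 0.012 at a common sum without mitochondrial genes, 0.057 with the median of compared genes at 0, 0.0042 with equal upper quartiles, -0.021 at a mean of at least 5, 0.079 with the leading transcript alone and 0.11 with length weighting. The cause of these moves was not tested. No paired analysis was possible because PC9 and MTAC-P have 1 library each, and no replicate could be left out. Depth is estimated, not recorded, and IL33 and the minor transcripts rest on few fragments.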
